A study of Caenorhabditis elegans with 2 samples.

Results

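The weaker peaks are the sites in a ranked list of MAB-9 chromatin immunoprecipitation peaks that come after the strongest ones and lie apart from the list the authors kept as conservative. They were selected on signal, the height that the authors' peak caller gave each peak: of 129095 ranked peaks, the 3400 that follow rank 1600, up to rank 5000, were taken, and 103 that touched a conservative peak by at least 1 bp were dropped. This left 3297 peaks, 2.55% of the ranked list, set here beside the 1431 conservative peaks. The list is built from whole Caenorhabditis elegans larvae of strain RW12257, a line made by a CRISPR insertion that adds TY1, EGFP and 3xFLAG to the mab-9 gene on chromosome II. Larvae were at the first larval stage (L1), starved after bleaching, with a labelled age of 6 hours, and GFP antibody recovered the tagged protein. The study has 1 group of 2 biological replicates. The files hold peaks and no read counts, so depth is unknown and limits the precision to an extent that cannot be given. Control libraries were not analysed here, the sex of the larvae was not collected, and in whole larvae a site used in few cells and a site used weakly in many cells cannot be told apart.

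MAB-9 belongs to the T-box transcription factors, which bind DNA through a shared domain and recognise a short half-site. In the worm it is known for patterning the hindgut and the male tail and for its part in motor neuron identity. A peak is a stretch of genome that immunoprecipitation recovered more than its surroundings, and the irreproducible discovery rate (here the rate) measures how poorly a peak's rank repeats between the lists compared, so that a low rate marks a repeatable peak. A promoter is the DNA around a gene's start, where transcription begins and many factors bind.

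Sequences are printed for 3 sets of weaker peaks, because the results below turn on where the peaks lie and on what letters they hold. All are from RefSeq assembly WBcel235, the same build as the ce11 coordinates of the files, on the plus strand. The first set shows the promoter peaks with the highest signal that lie outside annotated UTRs, with the summit base in capitals. Y77E11A.7 lies at chrIV:1420288-1420348, asp-4 at chrX:13221620-13221680 and txt-19 at chrIV:12845802-12845862.
Y77E11A.7 promoter peak: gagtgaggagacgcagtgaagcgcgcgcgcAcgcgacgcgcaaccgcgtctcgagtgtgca
asp-4 promoter peak: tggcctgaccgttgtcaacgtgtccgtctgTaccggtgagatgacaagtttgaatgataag
txt-19 promoter peak: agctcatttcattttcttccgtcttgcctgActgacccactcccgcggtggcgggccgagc

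The second set holds the T-box half-site AGGTGTGA or its reverse complement, in capitals, at the 5 peaks with the half-site and the highest signal. Each is named by the nearest protein-coding start, which is 1811 bp away for R10E9.4 and farther for the others. The stretches are chrIII:3970982-3971011 (R10E9.4), chrII:15043102-15043131 (trip-4), chrIV:16388581-16388610 (Y65A5A.24), chrIII:5437919-5437948 (W03A5.6) and chrII:1481805-1481834 (H17B01.5).
R10E9.4 half-site: atcggcggaaaAGGTGTGAaagcttttccc
trip-4 half-site: ctctgagttacTCACACCTtctcgagagaa
Y65A5A.24 half-site: catgcattttcTCACACCTgttttgtggaa
W03A5.6 half-site: attatccccatTCACACCTatttggaagga
H17B01.5 half-site: caactggtaagAGGTGTGActggtgtgcta

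The third set shows the GAGA repeat GAGAGAGA, on either strand and in capitals, at the 2 peaks with the repeat and the highest signal. The stretch chrV:6888910-6888970 lies in an intron peak named by the start of K11C4.2, and chrIV:12845730-12845790 lies in the txt-19 promoter peak, beside the window printed above.
K11C4.2 repeat: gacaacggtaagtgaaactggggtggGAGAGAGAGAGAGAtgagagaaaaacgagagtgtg
txt-19 repeat: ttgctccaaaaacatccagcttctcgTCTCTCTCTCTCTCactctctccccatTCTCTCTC

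The weaker peaks fell in a narrow band of signal. Their signal ran from 51.6 to 68.7 with a median of 56.4, on the caller's own scale, while the conservative peaks ran from 2.02 to 721 with a median of 98.7. The rank limits cut through a smooth slope: the 2 peaks just outside the upper limit had signals of 68.70 and 68.68 and the 2 just inside had 68.68 and 68.67, while the last 2 inside the lower limit had 51.62 and 51.61 and the next outside had 51.61. Not every conservative peak was stronger than the weaker peaks. Of the 1431 conservative peaks, 1254 were within ranks 1 to 1600, 100 were between there and rank 5000, and 77 came after rank 5000, and 346 of the first 1600 ranks were held by peaks outside the conservative list. The weaker peaks had a median rate of 0.0949, with a range from 0.00183 to 0.854. A rate of at most 0.01 was reached by 10 of the 3297 (0.303%), beside 1.17% of all ranked peaks, and a rate of at most 0.05 by 964 (29.2%). Since the conservative list takes the repeatable peaks, these shares follow from how the weaker peaks were selected and are given as a description. The 10 with a rate of at most 0.01, named by their nearest protein-coding start, were those of cla-1, an active zone protein of synapses, Y95D11A.5, plg-1, clec-80, cpn-3, ZC247.2, Y69E1A.1, Y59H11AM.1, cts-1 and alh-12, all named after their values were seen. The alh-12 peak was not matched in the ranked list of replicate 1, and neither replicate's own thresholded list held any of the 10. None of the 10 lay at a promoter, with 6 intergenic, 3 in exons and 1 in an intron.

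Each weaker peak was 320 bp wide with its summit at the middle, and 2 of them overlapped each other. They were spread at 32.9 per Mb of the nuclear genome. The nearest conservative summit was a median of 24431 bp away and was within 1000 bp at 110 (3.34%).

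The ranked lists of the replicates are long, and both matched most of these sites at unequal height. Replicate 1 has 116030 ranked peaks, which cover 31.9% of the nuclear genome, and replicate 2 has 90836, which cover 26.1%, so a match alone says little about a site. In the ranked list of replicate 1, 3240 of the 3297 (98.3%) were matched, beside 72.1% of all pooled ranked peaks, with a median signal of 31.2 and an interquartile range from 26.4 to 35.9. Replicate 2 matched 3147 (95.5%), beside 58.8% of all pooled ranked peaks, with a median of 24.5 and an interquartile range from 20.4 to 28.7. Signal was higher in replicate 1 at 2170 of the 3091 sites matched in both (70.2%), with a median log2 ratio of replicate 1 to replicate 2 of 0.35 and an SD of 0.67 over sites. A ratio of at most 2-fold was found at 2559 (82.8%) of the weaker peaks, beside 97% of 1346 conservative peaks, whose log2 ratio had an SD of 0.43. Selecting on a narrow band of pooled signal pairs a high value in one replicate with a low value in the other, and selecting the conservative peaks on repeatability narrows theirs, so the 2 spreads were not tested against each other. The replicates' own thresholded lists are short, with 824 peaks in replicate 1 and 869 in replicate 2. They held 28 (0.849%) and 38 (1.15%) of the weaker peaks, beside 52.1% and 52.7% of conservative peaks. The same share over all ranked peaks was not computed. Weaker peaks were chosen apart from the conservative list, so the contrast follows in part from the selection and is a description. The peak near dyb-1, a dystrobrevin gene, was the 1 weaker peak found in both lists, with a signal of 66.3 (52.3 in replicate 1 and 22.1 in replicate 2).

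**Figure D1:**
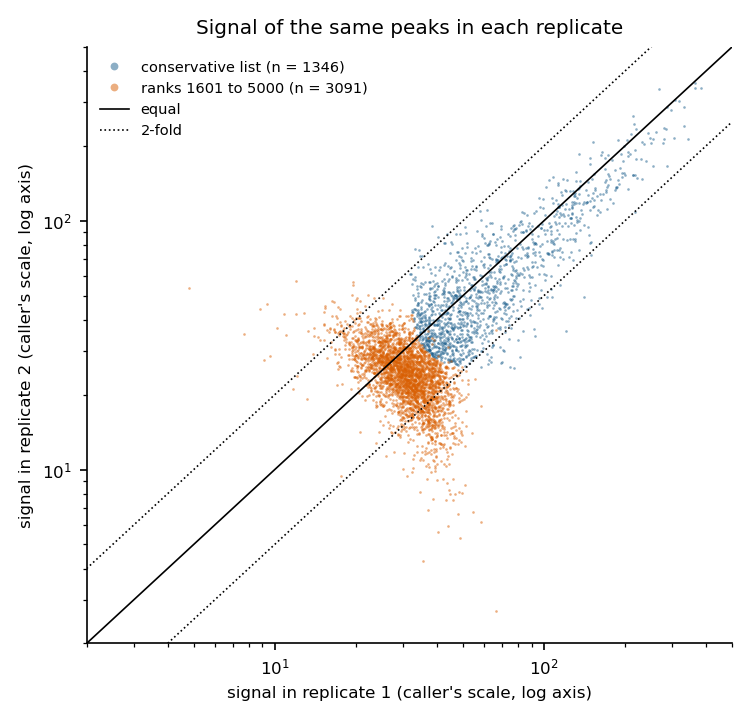
Signal of the same peak in replicate 1 (horizontal) and replicate 2 (vertical), both on log axes and on the caller's scale, one point per peak matched in both replicates' ranked lists, for 3091 weaker peaks and 1346 conservative peaks. The solid line marks equal signal and the dotted lines a 2-fold difference. The weaker peaks were selected from a narrow band of pooled signal, and 82.8% of them lie between the dotted lines.

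The location of the weaker peaks was closer to the make-up of the genome than that of the conservative peaks. Their promoter share was still above that of genome bases and their intron share below it. Promoter summits, which reach at most 1000 bp before and 250 bp past the nearest protein-coding transcript start, numbered 975 of 3297 (29.6%, exact 95% interval 28.0 to 31.2%). Promoter windows cover 25.4% of the bases of the nuclear genome, and 55.6% of the conservative summits lay in them (796 of 1431, interval 53.0 to 58.2%). The odds ratio against the conservative list was 0.335 (95% interval 0.295 to 0.381, two-sided exact Fisher test, adjusted p = 1.07e-62 over 10 location classes). By the same rule in each replicate's own ranked list, the promoter share was 27.1% in replicate 1 and 29.2% in replicate 2 (28.2% ± 1.46, SD, n = 2), both below 55.6%. The same pooled conservative list was used for both and has no share per replicate. The spread of the gap between replicates was therefore not measured. The tests are over peaks, which are not replicates of a condition, and both replicates enter the pooled list.

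Exons showed the opposite difference. Exon summits numbered 707 (21.4%, interval 20.1 to 22.9%), beside 22.1% of genome bases and 4.4% of conservative summits (odds ratio 5.93, interval 4.54 to 7.73, exact Fisher test, adjusted p = 4.60e-57). The exon share was 24.1% and 20.5% in the replicates' own lists. Introns held 800 summits (24.3%, interval 22.8 to 25.8%), beside 27.3% of bases and 14.2% of conservative summits (odds ratio 1.94, interval 1.64 to 2.29, exact Fisher test, adjusted p = 3.90e-15). Intergenic summits numbered 815 (24.7%, interval 23.3 to 26.2%), beside 25.2% of bases and 25.8% of conservative summits. That last difference was not detected (odds ratio 0.945, interval 0.820 to 1.09, exact Fisher test, adjusted p = 0.443), and the call depended on the comparison: against the weaker part of the conservative list the shares were 24.7% and 31.2% (exact Fisher test, adjusted p = 0.000682), and with a narrower promoter window they were 29.1% and 32.8% (adjusted p = 0.0146). The 4 classes exclude each other, so a lower promoter share raises the others.

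**Figure D2:**
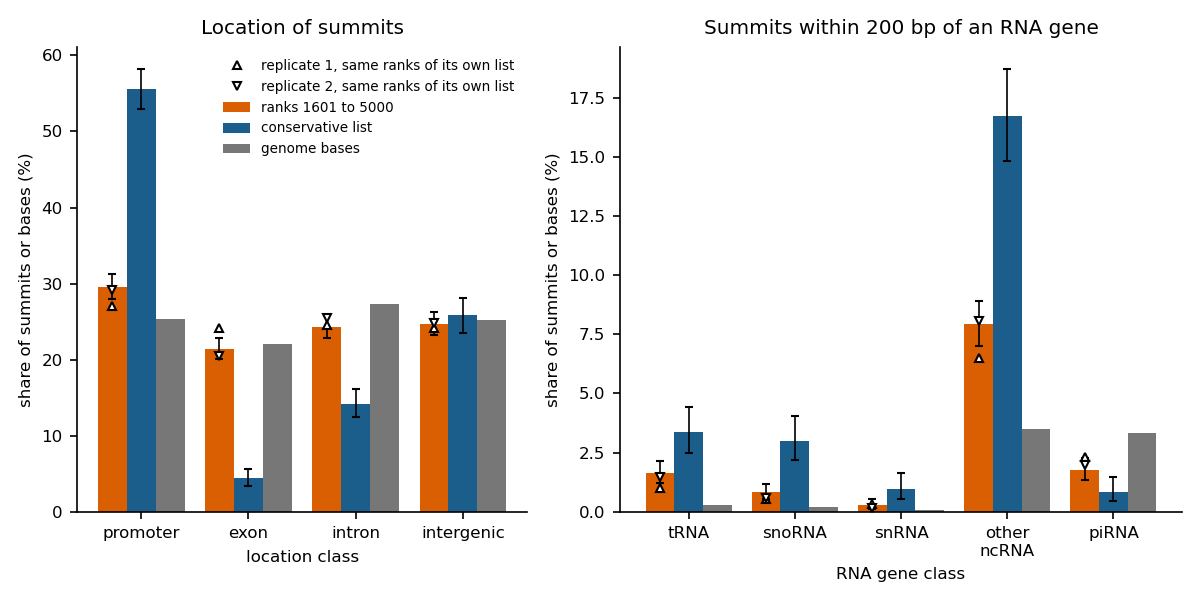
Share of summits in each location class (left) and within 200 bp of an RNA gene (right), in percent, for the weaker peaks, the conservative peaks and the bases of the nuclear genome; lines are exact 95% intervals over peaks and triangles are the same ranks of each replicate's own list. The weaker peaks stand at 29.6% for promoters and 21.4% for exons, beside genome values of 25.4% and 22.1%, while the conservative list stands at 55.6% and 4.4%.

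Along the ranking, the promoter share was lower from group to group within the conservative list and level across the weaker peaks. With the conservative peaks divided by signal into 4 equal groups, it was 70.9%, 60.9%, 49.2% and 41.6% from the highest group to the lowest. Within the weaker peaks it was 30.5% up to rank 2000, 28.5% from there to rank 3000, 28.0% to rank 4000 and 31.8% to rank 5000, with intervals that overlap. Peaks after rank 5000 with no conservative overlap had shares from 24.6% to 26.2%, next to the genome value. Exon shares ran the other way, from 1.12% to 8.94% over the conservative groups and from 18.8% to 22.6% over the weaker peaks. The 343 peaks of ranks 1 to 1600 with no conservative overlap had 28.6% promoter, 7.58% exon and 42.3% intergenic summits. Their signal reached 1808, above the conservative maximum of 721, what kept them off that list is not given, and their shares were not tested. The 100 conservative peaks within the signal range of the weaker peaks had 36% promoter summits (interval 26.6 to 46.2%) and 9.0% exon summits (interval 4.2 to 16.4%). That comparison was chosen after the values were seen and not tested. Within the weaker peaks the shares varied little with the rate. Promoter shares were 29.5% at rates up to 0.05, 30.3% at rates from 0.05 to 0.1 and 29.3% at higher rates, and exon shares were 19.2%, 21.3% and 22.9%. The 65 weaker peaks in a replicate's thresholded list had 36.9% promoter and 6.15% exon summits, also without a test.

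**Figure D3:**
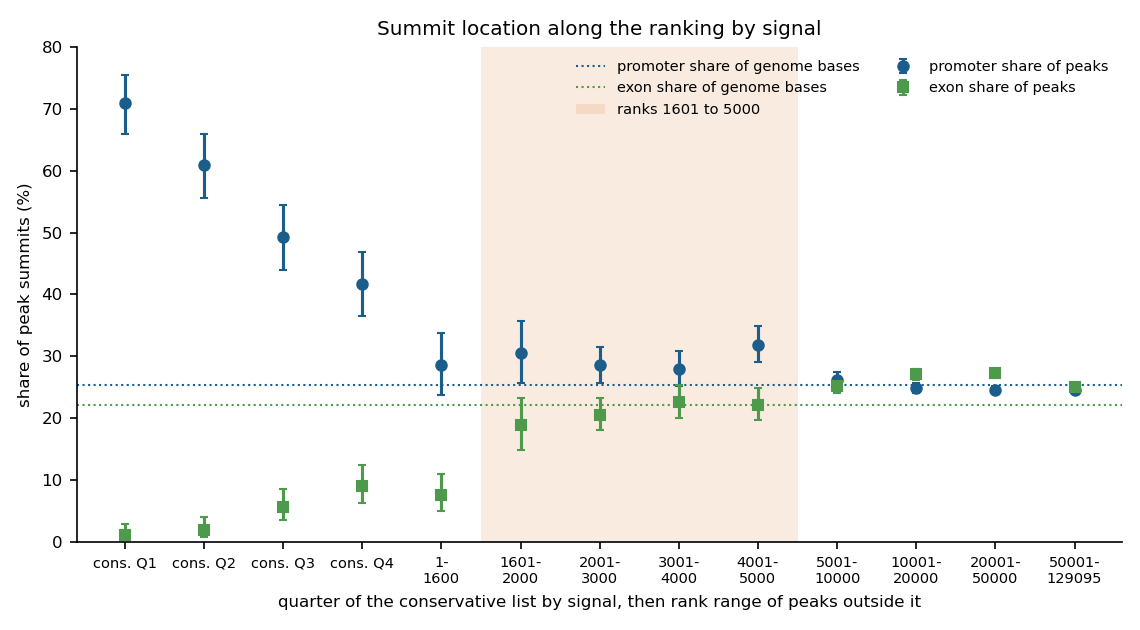
Share of summits at promoters (circles) and in exons (squares), in percent with exact 95% intervals over peaks, for 4 equal groups of the conservative list by signal (Q1 highest) and then for rank ranges of peaks outside it; dotted lines are the shares of genome bases and the shaded band marks the weaker peaks. The promoter share descends from 70.9% to 41.6% over the 4 groups and stays between 28.0% and 31.8% across the shaded ranks.

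The peaks were also less tightly placed at gene starts. The median distance from a weaker summit to the nearest protein-coding start was 1249 bp, beside 527 bp for conservative summits. The 250 bp just upstream of a start, where conservative summits gather, held 312 weaker summits (9.46%) and 428 conservative ones (29.9%). The first stretch of the gene, over 250 and up to 1000 bp downstream, held 435 weaker summits (13.2%) and 99 conservative ones (6.92%).

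The 15 weaker peaks with the highest signal, all between 68.4 and 68.7, show the same mixture, with 3 at promoters, 5 in exons, 3 in introns and 4 intergenic. For 9 of them a protein-coding start lay within 2000 bp. The peak at Y77E11A.7 (WBGene00022310), whose sequence is printed above, covers bases 1420158 to 1420477 of chromosome IV. Its summit is 469 bp before the start, and it had a signal of 68.6 (30.4 in replicate 1 and 36.9 in replicate 2). The peak at asp-4 (WBGene00000217), an aspartyl protease gene, covers bases 13221490 to 13221809 of chromosome X, 188 bp upstream, with 68.6 (33.4 and 34.5). The 5 exon peaks among the 15 differed in how close the replicates were. The one with the highest signal, nearest to Y79H2A.3, had 34 in replicate 1 and 31.4 in replicate 2, and that of cla-1 had 38.5 and 32.0. The exon peak 1294 bp downstream of the start of plk-1 (WBGene00004042), which encodes a Polo-like kinase of cell division, had 45.6 in replicate 1 and 19.1 in replicate 2. The exon peak of deps-1, a gene of the germline P granules, had 49.5 and 23, and that of D1005.5 had 47 and 23.9. The other 4 of the 9 were those of tmed-4, ptp-4A2, ret-1, which encodes a reticulon, and sde-2. At the lower limit, the last 3 peaks were those of nep-1, at a promoter, cal-1, intergenic, and Y54F10AL.1, in an exon, each with a signal of 51.6.

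Weaker summits lay near 4 classes of noncoding RNA genes at shares above those of genome bases and below those of conservative summits, and piRNA genes were the exception. Transfer RNA genes, which RNA polymerase III transcribes, lay within 200 bp of 54 weaker summits (1.64%, interval 1.23 to 2.13%), beside 0.272% of genome bases and 3.35% of conservative summits (odds ratio 0.480, interval 0.324 to 0.711, exact Fisher test, adjusted p = 0.000705). Small nucleolar RNA genes, whose products guide the modification of other RNAs, lay within 200 bp of 27 (0.819%), beside 0.182% of bases and 3.00% of conservative summits (odds ratio 0.267, exact Fisher test, adjusted p = 1.19e-07). The 9 summits near small nuclear RNA genes of the spliceosome (0.273%) compare with 0.0655% of bases and 0.978% of conservative summits (odds ratio 0.277, exact Fisher test, adjusted p = 0.00355). Genes that the annotation labels only as ncRNA lay near 261 summits (7.92%), beside 3.5% of bases and 16.7% of conservative summits (odds ratio 0.429, exact Fisher test, adjusted p = 1.09e-17). All 4 classes thus placed the weaker peaks between the genome and the conservative list, and so did both replicates' own lists, for tRNA genes with 1.00% and 1.48%. No test was made against the genome shares. A summit can count both at a promoter and near an RNA gene, which was so for 14 of the 54 summits near tRNA genes.

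Genes for piRNAs, the small RNAs that guide Argonaute proteins in the germline, went the other way. They lay within 200 bp of 58 weaker summits (1.76%, interval 1.34 to 2.27%) and of 12 conservative ones (0.839%), with an odds ratio of 2.12 (interval 1.13 to 3.95, exact Fisher test, adjusted p = 0.0195). Both shares were below the 3.32% of genome bases, and the replicates' own lists gave 2.32% and 1.99%. Of the 58 summits, 52 were on chromosome IV, which holds 14714 of the 15363 annotated piRNA genes. Chromosome IV also held more of the weaker peaks (19%) than of the conservative ones (15.4%), and the part of that difference in the piRNA count was not tested.

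The weaker peak with the highest signal near a tRNA gene covers bases 7756942 to 7757261 of chromosome II, next to the tRNA gene WBGene00022896. Its pooled signal was 68.3, with 22.2 in replicate 1 and 50.5 in replicate 2, and replicate 2's thresholded list held it. The highest near a small nucleolar RNA gene is the intron peak at K11C4.6, covering bases 6888802 to 6889121 of chromosome V, whose signal was 68.7 in the pooled list and 31.1 in each replicate. Its GAGA repeat is printed above under the nearest protein-coding start, K11C4.2. The first of these peaks rests mainly on replicate 2, while the second was equal in both.

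Relative to chromosome length, the weaker peaks were denser on III, I and IV and sparser on X, V and II. The X chromosome held 509 (15.4%, interval 14.2 to 16.7%), beside 17.7% of the genome and 18.7% of the conservative peaks (odds ratio 0.796, interval 0.676 to 0.937, exact Fisher test, adjusted p = 0.00883), and 15% and 15.3% in the replicates' own lists. Chromosome V held 17.4%, beside 20.9% of the genome and 14.7% of conservative peaks. The largest share was on IV, with 19% beside 17.4% of the genome. III held 17.2%, beside 13.7% of the genome and 18.7% of conservative peaks, I held 16.6%, beside 15% and 17.5%, and II held 14.3%, beside 15.2% and 15%. Only the X chromosome was among the classes tested.

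In base composition the weaker peaks lay between their surroundings and the conservative list. Windows reaching 100 bp to either side of the summit had a median GC content of 41.8% (interquartile range 36.8 to 46.3%), beside 44.8% in conservative windows and 35.8% in 6270 flanking windows centred 1000 bp to either side. The excess over the flanks was not limited to exons, since the median was 43.3% in exon peaks, 41.3% in promoter peaks and 40.8% in both intron and intergenic peaks. Letters that the assembly masks as repeats made up, on average, 28.0% of the weaker windows, 25.7% of the conservative windows and 37.8% of the flanks.

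Of 10 patterns searched on both strands in these windows, the GAGA repeat differed most from the conservative list. GAGAGAGA lay in 125 weaker windows (3.79%, interval 3.17 to 4.5%), in 9.64% of conservative windows and in 1.56% of flanks. The odds ratio against the conservative list was 0.369 (interval 0.287 to 0.474, exact Fisher test, adjusted p = 1.56e-13 over 10 patterns), and the replicates' own lists gave 3.29% and 3.70%. Like the promoter share, its frequency was level across the weaker ranks, from 3.41% to 4.69%, and was from 1.29% to 2.16% after rank 5000. It was rare in exon peaks (3 of 707, 0.424%) and lay in 3.90% of promoter, 4.75% of intron and 5.64% of intergenic peaks, below the conservative share in each class. The runs printed above for K11C4.2 and txt-19 are longer than the 8 letters searched.

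The T-box half-site was scarce in the weaker peaks and around them. AGGTGTGA lay in 15 of the 3297 windows (0.455%, interval 0.255 to 0.749%), in 3 of the 1431 conservative windows (0.210%) and in 0.335% of flanks. No difference from the conservative list was detected (odds ratio 2.18, interval 0.629 to 7.53, exact Fisher test, adjusted p = 0.338), and the interval leaves room for a sizeable one. The shorter core AGGTGT, which every AGGTGTGA contains, lay in 6.52%, 4.96% and 6.04% (exact Fisher test, adjusted p = 0.0635). Of the 15 half-sites, 7 were in intergenic peaks, 4 at promoters, 3 in introns and 1 in an exon. The R10E9.4 peak, first of those printed, had a pooled signal of 63.2 with 15.2 in replicate 1 and 38.6 in replicate 2, and the trip-4 peak had 63.2 with 34.8 and 28.0. The median signal was 54.5 with the half-site and 56.4 without.

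Among the other patterns, the GATA factor site TGATAA was more frequent in weaker than in conservative windows, at 12% and 8.39%, and below the 16.2% of flanks in both (odds ratio 1.5, interval 1.21 to 1.85, exact Fisher test, adjusted p = 0.000572). That call was lost against the weaker part of the conservative list, where TGATAA stood at 10.5% (exact Fisher test, adjusted p = 0.395), and among promoter peaks alone, an alternative added after the data were seen (11.4% and 8.17%, adjusted p = 0.0508). The nuclear receptor half-site AGGTCA was also more frequent in weaker windows, 5.64% against 3.77% (odds ratio 1.52, exact Fisher test, adjusted p = 0.0150), as was poly-T, TTTTTTTT, 14.8% against 10.9% (odds ratio 1.42, exact Fisher test, adjusted p = 0.000782), which stood at 25.2% in flanks. The GC box GGGCGG was less frequent, 6.61% against 10.3% (odds ratio 0.614, exact Fisher test, adjusted p = 9.28e-05). GC content rose from flanks to weaker to conservative windows. GGGCGG, at 4.24% in flanks, rose with it, while TGATAA and poly-T fell. AGGTCA, at 4.45% in flanks, was most frequent in the weaker windows. The part of GC content in these patterns was not tested. The E-box CACGTG, read by basic helix-loop-helix proteins of the Myc type, lay in 5.73% of weaker, 7.20% of conservative and 3.78% of flanking windows, without a detected difference between the lists (odds ratio 0.784, exact Fisher test, adjusted p = 0.0708). In replicate 1's own ranked list its share was 4.39%, and the difference was called (exact Fisher test, adjusted p = 0.000281). The list compared was still the conservative one, which draws on both replicates. Neither the E-box CAGCTG (4.70% and 6.15%, exact Fisher test, adjusted p = 0.0635) nor GGTTCGA, the core of the internal B-box of tRNA genes (3.06% and 3.49%, adjusted p = 0.471), differed detectably over all windows, though GGTTCGA stood at 1.47% in flanks. By location class GGTTCGA differed in both directions, without a test. It lay in 2.12% of weaker and 9.85% of conservative intron windows, and in 3.49% and 1.51% of promoter windows. Exon shares were 1.98% and 3.17%, and intergenic shares 4.42% and 4.34%.

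**Figure D4:**
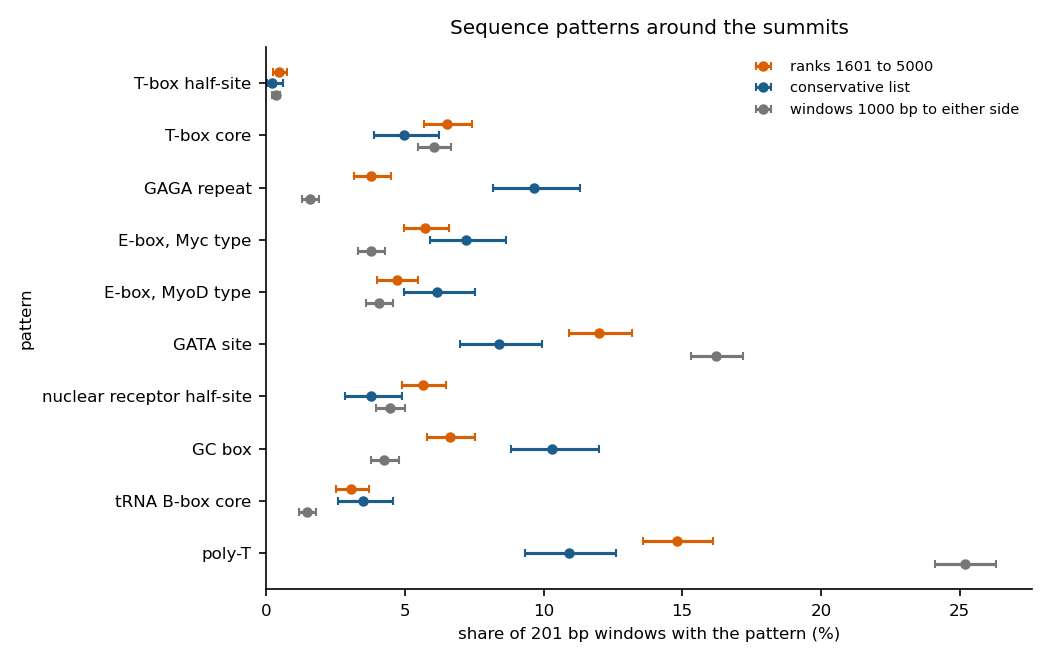
Share of windows, 100 bp to either side of a summit, that hold each of 10 sequence patterns, in percent with exact 95% intervals over windows, for the weaker peaks, the conservative peaks and windows centred 1000 bp to either side of the weaker summits. For the GAGA repeat the weaker peaks (3.79%) lie between the flanks (1.56%) and the conservative list (9.64%), and for the T-box half-site all 3 sets lie under 1%.

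A gene is said to carry a weaker peak when its start is the protein-coding start nearest to the summit and within 2000 bp of it. By this rule 2146 of the 3297 weaker peaks (65.1%) were assigned, beside 76.7% of conservative peaks, and 1944 of 19973 protein-coding genes (9.73%) carried at least 1, beside 996 (4.99%) with a conservative peak. Most carried a single one: 176 genes had at least 2 and 21 at least 3. Both kinds of peak were found at 161 genes, 8.28% of those with a weaker peak and 16.2% of those with a conservative one. The dropping of peaks that only touch a conservative one bears little on this. Dropping at 50% overlap only left 3300 peaks and 1945 genes with a weaker peak. The same ranks of each replicate's own list gave 1875 genes (9.39%) and 1853 (9.28%). Genes with a weaker peak had a mean of 2.05 annotated transcript starts, beside 1.49 for all protein-coding genes, and the part of this in the counts of gene classes was not tested.

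The gene classes are given as counts beside the 9.73% of all genes, and for conservative peaks beside 4.99%, without a test. The 39 lists were chosen with earlier results of these data known, and a gene can be in more than 1 of them. By the same rule in each replicate's own ranked list, the count moved by over 1.5 times in at least 1 replicate for 20 of the 39 lists, so the counts of both own lists stand beside each pooled one, replicate 1 first. At mab-9 itself (WBGene00003106), 2 weaker peaks lay upstream on chromosome II. The nearer spans 514739 to 515058, with its summit 1125 bp from the start and a signal of 64 (35.5 in replicate 1 and 27.1 in replicate 2). The farther spans 512575 to 512894, at 3289 bp, with 55.8 (33.6 and 24.7). Their rates were 0.0174 and 0.0321, and neither was in a replicate's thresholded list. Of the 21 T-box genes 3 carried a weaker peak (14.3%): mab-9, tbx-36 (56.6) and tbx-43 (53.6). In the replicates' own lists the count was 3 and 1. A conservative peak was carried by 1 of the 21, a gene that also carried a weaker one.

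Genes that pattern the body axis and the tail carried several. Of the 6 Hox genes, which set position along the body, 3 had a weaker promoter peak and 0 had a conservative one. The shares of all genes were 9.73% and 4.99%, so with 6 genes the count of 0 does not set the lists apart. The peak of ceh-13, the anterior Hox gene, lay 753 bp upstream with a signal of 61.6 (49.3 and 19.9 in replicates 1 and 2). The lin-39 peak, at the midbody Hox gene, lay 41 bp downstream with 58.7 (32.4 and 29.2), and that of nob-1, a posterior Hox gene, lay 952 bp upstream with 56.5 (24.4 and 32.6). In each replicate's own list 2 Hox genes carried a peak. Of 27 hindgut and male tail regulators 7 carried a weaker peak (25.9%) and 3 a conservative one, with 9 and 6 in the replicates' own lists and a mean of 2.44 starts per gene. Among them egl-27, an MTA-type chromatin protein gene, had 4 weaker peaks with signals of 61.1, 60.3, 52.7 and 52.3, the last matched in replicate 1 alone. The lin-17 gene, a Frizzled receptor of Wnt signals, had 2 with 66.8 and 51.7. Of 29 Wnt pathway genes 9 carried one (31.0%), with 7 and 6 in the replicates' own lists and a mean of 2.14 starts per gene. The highest signals were at lin-17, kin-19, a casein kinase (66.7), and sys-1, a beta-catenin (66.5). The class of ceh homeobox genes had 5 of 63 (7.94%, 2 and 2 in the own lists), among them ceh-22 (63.5) and ceh-20 (62.9).

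Neuronal lists differed among themselves. Axon guidance genes carried a weaker peak in 12 of 36 cases (33.3%, 7 and 8 in the replicates' own lists), led by madd-4, a secreted synapse organiser (65.3), unc-34, the worm Enabled (62.7), and sax-7, an L1-type adhesion molecule (62.4). That list had a mean of 3.33 starts per gene. Pan-neuronal genes did so in 8 of 32 cases (25%, 7 and 10, a mean of 2.41 starts), fewer than the 12 with a conservative peak. Their highest signals were at egl-3, a proprotein convertase for neuropeptides (63.5), unc-108, a Rab GTPase (61.4), and sng-1, synaptogyrin (58.5). Two-pore potassium channels of the twk class had 8 of 44 (18.2%, 7 and 9) and 3 with a conservative peak, led by twk-5 (61.5). Of 21 cholinergic identity genes 2 carried one (9.52%, 2 and 2), vab-7, a homeodomain regulator of motor neurons (67.0, with 27.5 and 38.1 in the replicates), and mab-9. A conservative peak was at 2 of the 21, and 1 gene had both kinds. The 11 GABAergic identity genes had 2 (18.2%, 1 and 5 in the own lists), with a mean of 3.91 starts per gene. They were unc-43, a calcium-dependent kinase with 3 weaker peaks (62.7, 55.8 and 53.3), and unc-47, the vesicular GABA transporter (51.8). Acetylcholine receptor subunits had 1 of 29 (3.45%, 2 and 4), acr-17, neuropeptides 8 of 102 (7.84%, 6 and 15) and their serpentine receptors 10 of 84 (11.9%, 10 and 7).

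Lists of growth and maintenance genes were small, and apart from that of translation factors their counts moved by over 1.5 times with the replicate. Cytosolic ribosomal protein genes carried a weaker peak in 16 of 81 cases (19.8%) and a conservative one in 20. The replicates' own lists gave 16 and 7. The rpl-18 gene had 2, an exon peak with 66.8 (40.8 and 26.7) and a promoter peak with 60.8, matched in replicate 2 alone (47). The rpl-7 promoter peak, with 66.5, had 16.3 in replicate 1 and 47.8 in replicate 2, a gap wider than at most weaker peaks. Translation factors had 4 of 33 with a weaker peak (12.1%, 3 and 3 in the own lists) and 8 with a conservative one. Proteasome subunits had 4 of 33 (12.1%, 2 and 7) and 6 with a conservative peak, and the respiratory chain and ATP synthase had 7 of 39 (17.9%, 4 and 3) and 7. Splicing factors had 3 of 40 (7.5%, 3 and 5) and 5 with a conservative peak, histones 2 of 72 (2.78%, 1 and 1) and 5, and aminoacyl-tRNA synthetases 3 of 32 (9.38%, 6 and 4) and 1. The proteasome count of replicate 2 passed the conservative one, and the synthetase count was higher in both own lists than in the pooled list. The heat shock proteins had 6 of 22 (27.3%) with a weaker and 4 with a conservative peak, but 2 and 4 in the replicates' own lists, so neither replicate alone gave more than the conservative count. At their head were hsp-110 (63.1) and hsp-6, the mitochondrial Hsp70 (61.5), both through exon peaks, and hsp-16.48, a small heat shock protein (60.4, with 58.4 in replicate 1 and 18 in replicate 2).

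Timing, starvation and tissue lists covered a wide range. Of 14 heterochronic genes, which time larval fates, 5 carried a weaker peak (35.7%, 6 and 3 in the replicates' own lists, a mean of 3.00 starts), led by lin-66 (62.8). Of 29 genes of L1 arrest and insulin signalling 5 did (17.2%, 7 and 5, a mean of 3.24 starts). Among them was daf-2, the insulin receptor gene, with peaks of 68.1 and 54 in introns. Hypodermis and seam genes had 6 of 31 (19.4%, 7 and 5) with a weaker and 1 with a conservative peak, with a mean of 2.81 starts. Among the 6 were vab-10, a spectraplakin (62.5 and 55.4), rnt-1, a RUNX factor (61.4), and elt-6, a GATA factor (61.2, matched in replicate 1 alone). Body wall muscle genes had 5 of 38 (13.2%, 5 and 6), led by unc-60, a cofilin gene (66.8 and 55.2). Pharynx genes had 3 of 20 (15%, 1 and 1). Intestine genes had 3 of 31 (9.68%, 4 and 3) and 0 with a conservative peak, beside 4.99% of all genes. The 3 were elt-7, a GATA factor of the gut (64.5, matched in replicate 1 alone), ftn-1, a ferritin (63.8), and mtl-1, a metallothionein (55.6). Germline genes had 3 of 37 (8.11%, 2 and 3), headed by deps-1. The intestine and germline shares were near that of all genes.

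Large gene families had pooled shares near or under that of all genes. Chemoreceptors, the receptors of chemosensory neurons, carried a weaker peak in 64 of 1311 cases (4.88%), beside 9.73% of all genes. With conservative peaks the count was 8 (0.610%), beside 4.99% of all genes. The replicates' own lists gave 59 and 60, and this list has a mean of 1.10 starts per gene. The highest signals were at srh-2 (67.0, with 29.4 and 32.7 in the replicates), srg-66 (66.0, with 49.6 and 13.7) and srh-17 (64.6). F-box genes, adaptors of protein degradation, had 21 of 322 (6.52%, 11 and 18 in the replicates' own lists) and 4 with a conservative peak. Their strongest weaker peak, at fbxa-209 (67.5), had 58.3 in replicate 1 and 6.2 in replicate 2, among the widest gaps between replicates of the peaks named here. C-type lectins had 22 of 240 (9.17%, 18 and 27) and 3 with a conservative peak, led by clec-57 (68.3). Collagens had 14 of 174 (8.05%, 16 and 10), nuclear hormone receptors 18 of 269 (6.69%, 27 and 27) and MATH and BATH genes 6 of 73 (8.22%, 4 and 7). Among enzymes of detoxification, cytochrome P450 genes had 5 of 74 (6.76%, 4 and 5), UDP-glucuronosyltransferases 4 of 67 (5.97%, 2 and 3) and glutathione S-transferases 3 of 44 (6.82%, 4 and 5). Insulin-like peptides had 2 of 39 (5.13%, 1 and 2) and major sperm proteins 2 of 31 (6.45%, 1 and 2).

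**Figure D5:**
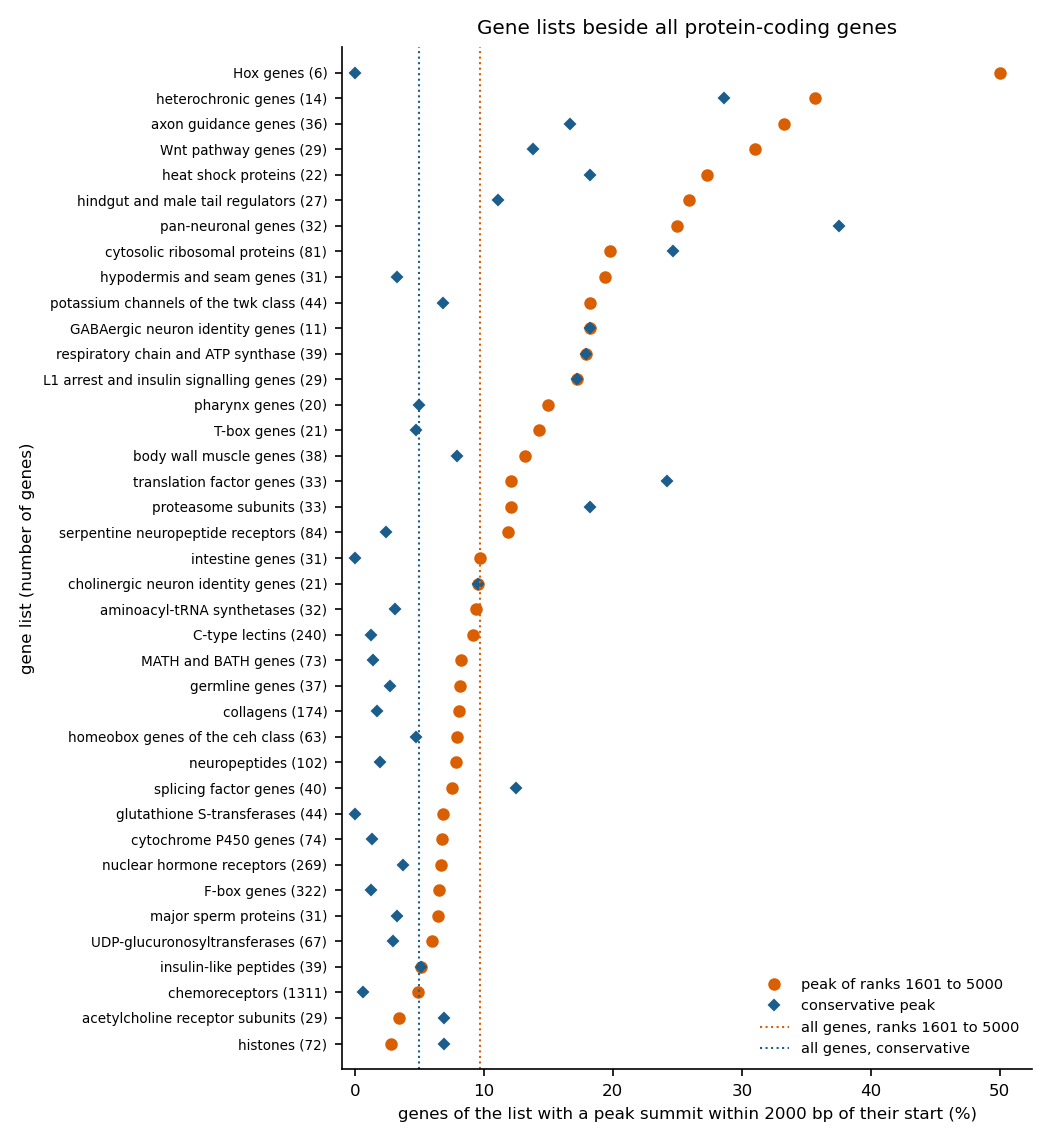
Share of the genes of each list, in percent, whose start is the nearest protein-coding start to a weaker summit (circles) or a conservative summit (diamonds) and within 2000 bp; the number of genes is in brackets and dotted lines mark all protein-coding genes at 9.73% and 4.99%. The lists run from 2.78% (histones) to 3 of 6 (Hox genes), and no test was made of any list.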

How the data were processed

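Peak lists of 2 biological replicates in 1 group were used, with ce11 coordinates per the labels. None of the labels and listings names the aligner or the peak caller, so both, with their versions, are not given in the sources used here. Signal, as deposited, is the value of the authors' peak caller, on an unstated scale. The deposited score, capped at 1000, follows the irreproducible discovery rate, and −log10 of the rate was read from the deposited ranked lists. By the file listings deposited with the samples, each list came from alignments and a control, and thresholded lists had a further input that is not described. The ranked list holding all 1431 conservative peaks was used; the other holds 1429. The members and gene lists were chosen with earlier results of these data known.

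Genes were from Ensembl release 115, starts of protein-coding transcripts. Genome shares count bases of the 6 nuclear chromosomes (100.3 Mb). Flanking windows lay over 300 bp from any weaker or conservative summit. A replicate's value is that of the strongest peak in its own ranked list overlapping by at least 50% of the shorter peak. Shares were compared with two-sided Fisher's exact tests and Benjamini-Hochberg adjustment, called at 0.05. Exact intervals are Clopper-Pearson, odds ratio intervals are Woolf, and all cover counting error over peaks only. Named genes are the nearest genes of the 15 strongest weaker peaks, up to 3 per list by signal, mab-9, the strongest near tRNA and snoRNA genes, the half-site peaks and the peaks at the rank limits. Of the listed names 7 matched no gene. The code was tested on made-up data with known answers. Alternatives were other ranks, lists, replicates, overlaps, windows and gene assignments. Scripts ran under Python 3.11.15 with SciPy 1.17.1 for tests, pandas 2.3.3 and NumPy 2.4.6 for tables and matplotlib 3.10.9 for figures.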

Additional observations from a re-analysis of the deposited data

How the results depend on the processing

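Over 18 settings and 152 values, 141 were labelled the same, which for a share means the same direction and side of the threshold. Gene counts had no test. Several settings could change little, so this count is no measure of robustness. Taking the middle of the peak, where each weaker summit already lay, left every location share unchanged, and dropping at 50% overlap only left 3300 peaks. The intergenic share turned its direction among the peaks up to rank 3300 (26.6% against 25.8%, Fisher's exact adjusted p = 0.620) and in the other pooled lists (24.8% against 24.7%, adjusted p = 0.971), and was called lower against the weaker part of the conservative list (24.7% against 31.2%) and with promoters from 500 bp upstream to 100 bp downstream (29.1% against 32.8%). The number of genes was 968 up to rank 3300 and 1079 after it, each with fewer peaks. It also moved with the assignment, from 1944 to 1337 with a start within 1000 bp. Counting every gene with a start within 2000 bp gave 2667. The lower CACGTG share was called when peaks were ranked by the lower of the 2 component signals that the pooled list gives and does not tie to a replicate (5.20% against 7.20%, Fisher's exact adjusted p = 0.0163) and in the other pooled lists (5.73% against 7.51%, adjusted p = 0.0342). The own lists of replicates 1 and 2 gave 4.39% and 5.73%, each against the conservative list of both replicates. The TGATAA call was lost against the weaker part of the conservative list (12% against 10.5%) and, in the alternative added after the data were seen, among promoter peaks (11.4% against 8.17%). The cause of these changes was not tested. No paired analysis was possible because there is 1 group. Unknown depth limits any statement on weak binding at sites outside the lists.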

Other observations

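Some long genes held several weaker summits within their span, counted from start to end of the annotated gene and named after their values were seen. Of all genes, 1717 held at least 1, 40 held 3 and 3 held 6. The 3 were aakg-1, a regulatory subunit gene of AMP-activated kinase (36.7 kb, where the mean density of weaker peaks gives 1.21), kin-1, the catalytic subunit of protein kinase A (38.5 kb, 1.26), and par-1, a polarity kinase (33.3 kb, 1.10). The weaker peaks of aakg-1 had signals from 52.3 to 65.3, with 4 in introns and 2 in exons. With 5 each followed daf-2 (46.3 kb, 1.52), T28B11.1, Y105C5A.15, rhgf-3 and mnk-1. The mnk-1 gene was short for this count (12.6 kb, 0.415) and also held 5 conservative summits. The median gene spans 2.03 kb.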
